A study of Homo sapiens with 21 samples.

Results

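AP-1 and immediate early genes were read from RNA-seq of A549 xenograft tumors, as 10 genes of 60651 in the table of raw counts: FOS, FOSB, FOSL1, FOSL2, JUN, JUND, EGR1, IER2, IER3 and DUSP1. They were chosen by gene symbol and not by a cutoff on their values, but with earlier results of these data known. All 10 passed the filter on low counts together with 16980 other genes. A549-Luc2, a human lung adenocarcinoma line carrying luciferase, was injected under the skin of female athymic nu/nu mice of 6 to 8 weeks (10000000 cells in Matrigel), and mice were randomized, 10 to a group, once tumors averaged 80 to 100 mm3. The Control group received the vehicle of DMSO, ethanol, PEG400 and corn oil by oral gavage, and the other groups received Oxy186 or Oxy210, 2 test compounds known by these code names, daily at 50 mg/kg in that vehicle. RNA of 7 tumors per group, of RIN over 8.0, was sequenced, each tumor being 1 replicate (r1 to r7). All 21 tumors thus share 1 cell line, an immunodeficient host without normal T cells, and the vehicle.

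AP-1 is a pair of basic leucine zipper proteins, usually 1 from the Fos family and 1 from the Jun family, that binds a short DNA site in genes of growth, invasion and inflammation. Immediate early genes are switched on within minutes of a growth factor, stress or tissue handling, without new protein synthesis, mainly through ERK and p38 signals that act on serum response factor at CArG boxes and on CREB or ATF proteins at CRE sites. Their transcripts are short-lived, so a tumor's level is a snapshot, and feedback genes such as the MAP kinase phosphatases shut the response off.

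The upstream sequences of 6 of the genes are shown because they hold a CArG box, a CRE-like site or a TATA box. The TATA box is not one of the signal sites named above, and it is the only one of these motifs found for FOS and FOSB. The sequences come from the RefSeq promoter table on GRCh38.p14, which holds 8 of the 10 genes and has no entry for FOSL1 and IER3. Each run reads 5′ to 3′ on the gene's strand within the 250 bases upstream of its start, with the letters of these motifs in capitals. EGR1 holds 2 CArG boxes, 105 to 96 and 83 to 74 bases before the start, JUN a CRE-like site at 67 to 60, JUND one at 200 to 193, FOS and FOSB a TATA box, and DUSP1 a CRE-like site and a TATA box.
EGR1, chr5:138465364-138465415, plus strand: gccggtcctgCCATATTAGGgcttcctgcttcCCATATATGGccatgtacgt
JUN, chr1:58784097-58784124, minus strand: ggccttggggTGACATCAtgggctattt
JUND, chr19:18281805-18281832, minus strand: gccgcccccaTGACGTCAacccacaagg
FOS, chr14:75278785-75278810, plus strand: aaacgcttgtTATAAAagcagtggct
FOSB, chr19:45467956-45467981, plus strand: gtcccgggcaTATAAAtacaggctgg
DUSP1, chr5:172771210-172771330, minus strand: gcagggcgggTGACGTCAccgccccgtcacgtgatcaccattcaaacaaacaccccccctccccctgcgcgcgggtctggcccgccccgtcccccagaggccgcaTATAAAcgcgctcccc

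Both strands were searched over the same 250 bases of all 35116 promoters, and none of the matches shown overlaps another motif. The CArG box stood in 1.16% of all promoters and in 1 of the 8 members (EGR1), the CRE-like site TGACNTCA in 6.87% and in 3 members, and the TATA box TATAAA in 10.7% and in 3 members. The GC box GGGCGG, which is not marked in the runs above, stood in 42.6% of promoters and in 7 members. The AP-1 site TGACTCA or TGAGTCA stood in 4.2% and in none of the 8. These are matches of letters and not measured binding, and sites farther upstream were not searched.

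Depth was alike in the groups, with 13787493 to 17865119 counts on human genes per tumor. Levels are given as CPM (counts scaled to a common library total) after TMM normalization, which scales each library by a robust mean over genes. The labelled tumor type was checked first: all 8 A549 epithelial markers, among them KRT8, EPCAM and AKR1B10, were present in every tumor. Reads were assigned to a combined human and mouse genome and only human genes were counted, and other cell types were checked by marker lists. The median was below 1 CPM for 3 of 4 leukocyte, 2 of 3 endothelial, 3 of 6 fibroblast and pericyte, 3 of 3 red blood cell and 2 of 4 skin keratinocyte markers, and CD3E, VWF, COL1A2, HBA1 and KRT1 were at 0 in most tumors. The markers measured above that were LYZ (median 9.83 CPM), PECAM1 (2.11), LUM (93.6), COL1A1 (39.0), ACTA2 (1.61), KRT10 (49.2) and KRT5 (3.54). The tumors also differed in how log2 CPM changed with the GC content of exons. The GC slope, taken per 10 percentage points against the average tumor, ran from -0.511 to -0.18 in Oxy186 r1 to r4, against 0.0789 to 0.491 in Oxy186 r5 to r7, -0.15 to 0.397 in Control and -0.329 to 0.262 in Oxy210, whose lowest tumor (r5) thus lay within the range of r1 to r4. GC offsets, used below as an alternative, remove each library's trend with GC content.

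Per kilobase of exon, the Control tumors held most JUND, a growth-restraining Jun protein expressed without stimulation, at a median of 54.7 CPM per kilobase, and DUSP1, the nuclear phosphatase that switches off p38, JNK and ERK, at 52.4. IER3, a stress-induced regulator of survival, followed at 39.8 CPM per kilobase. FOSL2 (Fra-2, a late and more stable Fos protein) at 18.9 and JUN (c-Jun) at 15.7 came next. FOS (c-Fos) lay at 10.9 and IER2, a nuclear protein of the early response, at 7.24. The 3 lowest were FOSL1 (Fra-1, a Fos protein of invasive carcinoma cells) at 2.48, EGR1 (a zinc finger factor) at 0.926 and FOSB at 0.500 CPM per kilobase.

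On GRCh38 (GENCODE 44), JUND is a gene of 1 exon block at chr19:18279694-18281622, FOSL1 one of 4 at chr11:65892049-65900573 and EGR1 one of 2 at chr5:138465479-138469303. Neighbours in this order did not separate everywhere. JUND exceeded DUSP1 in 4 of 7 Control tumors, and DUSP1 exceeded IER3, FOSL2 exceeded JUN, FOS exceeded IER2 and EGR1 exceeded FOSB in 5 of 7 each, so these pairs overlap within the group. IER3 exceeded FOSL2, and IER2 exceeded FOSL1, in 7 of 7. The mean log2 CPM per kilobase was 5.88 ± 0.56 (SD, n = 7) for JUND and 5.63 ± 0.34 (SD, n = 7) for DUSP1, and -0.15 ± 1.29 (SD, n = 7) for EGR1 and -0.83 ± 0.85 (SD, n = 7) for FOSB.

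Within the Fos family, FOSL2 had the largest median share per kilobase of exon in each group. Its share of the summed FOS, FOSB, FOSL1 and FOSL2 level per kilobase had a median of 58.6% in Control (35.9 to 71.7), 65.7% in Oxy186 (42.7 to 78.7) and 65.3% in Oxy210 (59.9 to 69.2). The share of FOS had medians of 32.0% (18.2 to 55.3), 26.7% (17.2 to 50.5) and 28.6% (18.9 to 35.9) in the same order, with ranges that overlapped. Per kilobase of the longest transcript, the Control medians of FOSL2 and FOS lay closer, at 20.2 and 16.5 CPM. FOSB made up 0.687% to 3.22% in any tumor. Within the Jun family, JUND and JUNB were the main transcripts per length, with Control medians of 43.3% and 40.5%, and JUN had a median of 13.6%. Shares compare transcripts and say nothing of protein or of which pairs formed.

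FOS, the prototype immediate early gene, ranged from 18.8 to 74.6 CPM in Control with a median of 34.7. In Oxy186 it ranged from 13.5 to 66.7 CPM with a median of 17.8, and in Oxy210 from 11.9 to 41.1 CPM with a median of 23.8. The groups overlapped: Control r4 and Oxy186 r1 were the 2 highest of all tumors, while the other 6 Oxy186 tumors lay at or below 29.1 CPM. EGR1 ranged from 0.634 to 10.1 CPM in Control (median 2.91), from 0.635 to 3.62 in Oxy186 (median 1.34) and from 0.605 to 2.64 in Oxy210 (median 1.70). Its highest Control tumor was again r4, followed by r5 at 6.34 CPM, and its lowest, r7, lay as low as the lowest treated tumor. FOSB, a close relative of FOS with the same kind of induction, ranged from 1.34 to 7.05 CPM in Control (median 2.78), from 1.29 to 7.42 in Oxy186 (median 1.98) and from 1.37 to 3.25 in Oxy210 (median 2.42). Control r4 and Oxy186 r1 were the highest for FOSB too.

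FOSL1 ranged from 3.24 to 6.85 CPM in Control (median 4.67), from 1.41 to 4.96 in Oxy186 (median 2.84) and from 1.58 to 3.69 in Oxy210 (median 2.71). All 7 Oxy210 tumors lay below the Control median, and 4 of them below every Control tumor. FOSL2 differed little, at 109 to 167 CPM in Control (median 136), 83.1 to 157 in Oxy186 (median 130) and 92.6 to 193 in Oxy210 (median 129).

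JUN ranged from 37.9 to 79.3 CPM in Control (median 56.9), from 26.5 to 64.1 in Oxy186 (median 40.6) and from 33.3 to 63.8 in Oxy210 (median 48.5). JUND ranged from 60.2 to 171 CPM in Control (median 106), from 58.6 to 149 in Oxy186 (median 74.6) and from 41.5 to 131 in Oxy210 (median 65.2). In both Jun genes the lower end of the Control range was shared with the treated tumors. Oxy186 r1 to r4 held 58.6 to 81.5 CPM of JUND, with r5 at 59.4 and r6 and r7 at 149 and 111.

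IER2 ranged from 15.5 to 30.6 CPM in Control (median 22.3), from 7.66 to 29.4 in Oxy186 (median 17.5) and from 11.4 to 28.1 in Oxy210 (median 18.8). Within Oxy186 it held 7.66 to 17.5 CPM in r1 to r4, which the study set apart on expression, and 23.3 to 29.4 in r5 to r7. IER3 ranged from 50.8 to 79.3 CPM in Control (median 53.7), from 39.8 to 90.8 in Oxy186 (median 57.8) and from 27.6 to 74.2 in Oxy210 (median 43.8). For IER3 the order within Oxy186 was the opposite, with r1 to r4 at 57.8 to 90.8 CPM and r5 to r7 at 39.8 to 56.9. The share of all genes that separate these sets of tumors was not counted. The GC slope separated the same tumors, at -0.511 to -0.18 in r1 to r4 and 0.0789 to 0.491 in r5 to r7. Over all tumors, IER2 ran with that slope at a Pearson r of 0.91 and IER3 at -0.12. DUSP1 ranged from 59.3 to 122 CPM in Control (median 105), from 48.2 to 162 in Oxy186 (median 104) and from 60.5 to 113 in Oxy210 (median 86.7). IER2 shares 52.2% of its exon bases with genes on the opposite strand (ENSG00000267598 and ENSG00000287296) and IER3 38.9% (HCG20 and IER3-AS1), and since no source used here says whether counting was by strand, reads of these genes cannot be told apart from those of their neighbours.

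**Figure D1:**
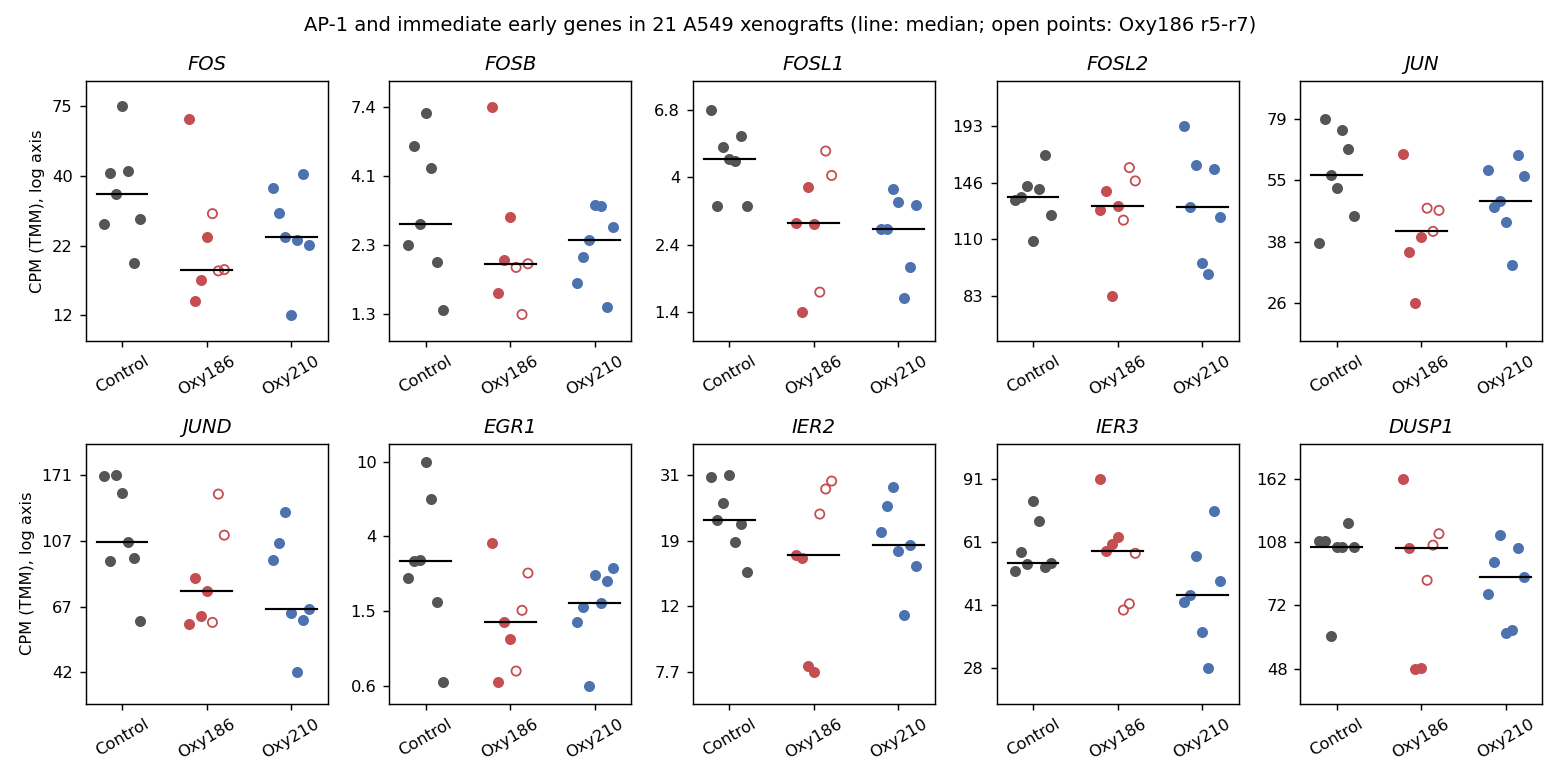
CPM of each gene in each of 21 tumors on a log axis, with 1 point per tumor, a line at the median of each group and open points for Oxy186 r5 to r7. For none of the 10 genes were the groups separate, and Oxy186 r1 was the highest Oxy186 tumor for FOS, FOSB, JUN, EGR1, IER3 and DUSP1. IER2 in Oxy186 ran up to 17.5 CPM in r1 to r4 and from 23.3 CPM in r5 to r7. The GC slope split these tumors too, and how many other genes split likewise was not counted.

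A few tumors held the extremes. Oxy186 r1 was the highest of its group for 6 of the 10 genes, Control r4 for 5 and Oxy210 r3 for 4. Oxy210 r5 was the lowest of its group for 6 genes and Control r7 for 5. The median difference of the 10 genes from their group medians was 0.65 (log2) in Oxy186 r1 and 0.48 in Control r4, against -0.52 in Oxy210 r5 and -0.43 in Control r7.

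EGR1 was the most variable of the 10 within groups, with an SD of 0.926 (log2 CPM), above that of 97.5% of all kept genes. FOSB (0.705, above 89.8%) and FOS (0.666, above 87.3%) followed, against a median of 0.367 over all genes. FOSL2 varied least, with an SD of 0.301, above that of 36.3% of genes. Counting error alone, as an SD of log2 CPM, came to 0.237 for EGR1, whose lowest library held 9 counts, to 0.216 for FOSB and to 0.198 for FOSL1, and to 0.082 or less for the other 7 genes, and it covers counting error only. The highest tumor exceeded the lowest 16.7-fold for EGR1, 6.29-fold for FOS and 2.32-fold for FOSL2. For IER2 the SD was 0.556, and 0.243 once each library's GC trend was removed.

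Oxy186 was compared with Control to ask whether the compound altered expression in the tumors. All 10 genes had a log2 fold change below 0, with a median of -0.44, where 51.1% of all genes tested lay below 0 and their median was -0.0067. In edgeR's quasi-likelihood test, with p adjusted over all genes by Benjamini-Hochberg, 0 of the 10 genes reached an adjusted p at or under 0.05, and 0 of 16291 genes were called at a fold change over 2 (0% called). The count of called genes was 0 with DESeq2 and limma voom as well, and 618 genes had an unadjusted p under 0.05. At that unadjusted threshold 3 of the 10 genes were lower and 0 higher, beside 2.36% of all genes lower and 234 of 16291 higher. In bulk tissue, fewer cells with a transcript and less of it per cell cannot be told apart.

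The 3 genes were EGR1, FOSL1 and JUN. EGR1 had a log2 fold change of -1.23 (SE 0.51, 95% interval -2.30 to -0.17), an unadjusted p of 0.0259 and an edgeR adjusted p of 0.862. FOSL1 had a log2 fold change of -0.64 (SE 0.27, 95% interval -1.21 to -0.08), and JUN, one of the main partners of Fos proteins, of -0.48 (SE 0.20, 95% interval -0.90 to -0.06), each with the same edgeR adjusted p of 0.862. Each of the 3 lay below the Control median in 6 of 7 Oxy186 tumors. The count rested on single tumors: it was 0 without Oxy186 r2 and 5 without Oxy186 r1, the tumor with the high values, when FOS and FOSB joined, and 1 without Control r5 or r6 or Oxy186 r5. Without Control r4, EGR1 was at -0.80.

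The other 7 genes had intervals that held 0. FOS had a log2 fold change of -0.53 (95% interval -1.27 to 0.21), JUND of -0.51 (-1.03 to 0.01), FOSB of -0.40 (-1.28 to 0.48) and IER2 of -0.34 (-0.92 to 0.24). DUSP1 at -0.11, FOSL2 at -0.09 and IER3 at -0.03 lay closest to 0. GC offsets moved the median of the 10 genes to -0.05, with 7 below 0, and turned JUND, the gene with the highest exon GC content (69.9%), to 0.42 and IER3 to 0.36. With them IER2 was at -0.01, FOSL1 at -0.28, JUN at -0.33 and EGR1 at -1.04. EGR1 was then the only one of the 10 at an unadjusted p under 0.05.

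Oxy210 was compared with the same 7 Control tumors, so the 2 comparisons share their controls. Here 9 of the 10 genes lay below 0, with a median log2 fold change of -0.41 against 0.0086 over all genes, of which 48.7% lay below 0. By edgeR with Benjamini-Hochberg adjustment, 0 of the 10 genes reached an adjusted p at or under 0.05, and 0 of 16396 genes were called (0% called), with 2270 genes at an unadjusted p under 0.05. DESeq2 called 22 genes and limma voom 0. Unadjusted, 3 of the 10 genes were lower and 0 higher, beside 8.12% of all genes lower and 5.72% higher. Sums of the marker lists of other cells, read from human genes alone, were also compared. The leukocyte sum had a median of 7.48 CPM in Oxy210 (3.32 to 11.2), 10.0 in Oxy186 and 14.8 in Control (4.42 to 23.3). It was nearly all LYZ, with PTPRC, CD68 and CD3E at medians of 0.202, 0.0566 and 0 CPM over all tumors. The skin keratinocyte sum had a median of 39.4 CPM in Oxy210 (37.4 to 54.9), 71.5 in Oxy186 and 62.7 in Control (48.4 to 106). It was mostly KRT10, while KRT1 was at 0 in most tumors. Each of these sums thus mostly follows a single gene and does not show that such cells were present. The endothelial sum had medians of 2.57 CPM in Oxy210 and 2.83 in Control. The fibroblast and pericyte sum had 125 and 151, and the red blood cell sum 0.0671 and 0.0676. The A549 epithelial sum had medians of 11700 CPM in Oxy210, 16200 in Oxy186 and 13600 in Control. The part of these sums in the differences was not tested.

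FOSL1 had the smallest p of the 10, with a log2 fold change of -0.77 (SE 0.21, 95% interval -1.20 to -0.33), or 0.587 of the Control level. It lay below the Control median in 7 of 7 Oxy210 tumors, and its unadjusted p was 0.00163, with an edgeR adjusted p of 0.246. Over the other settings the adjusted p ranged from 0.0511 to 0.578, and with GC offsets the log2 fold change was -0.58 at an adjusted p of 0.195. FOSL1 was at an unadjusted p under 0.05 in each of the 14 fits without 1 tumor. Its counts were low, at 25 to 55 per Oxy210 tumor and 46 to 94 per Control tumor.

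EGR1 had a log2 fold change of -1.06 (SE 0.45, 95% interval -2.0 to -0.13) and lay below the Control median in 7 of 7 Oxy210 tumors. Without Control r4, the tumor with the highest EGR1, its log2 fold change was -0.63, and 1 of the 10 genes rather than 3 then had an unadjusted p under 0.05. JUND had a log2 fold change of -0.57 (SE 0.24, 95% interval -1.07 to -0.07), which GC offsets moved to -0.20. For both, the edgeR adjusted p was at least 0.318. FOSB at -0.57, FOS at -0.48, IER3 at -0.33, IER2 and DUSP1 at -0.24 each and JUN at -0.22 had intervals that held 0, and FOSL2 was at 0.01. GC offsets left 9 of the 10 genes below 0, with a median of -0.19 and IER2 at -0.02, and FOSL1 was then the only one of the 10 at an unadjusted p under 0.05.

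**Figure D2:**
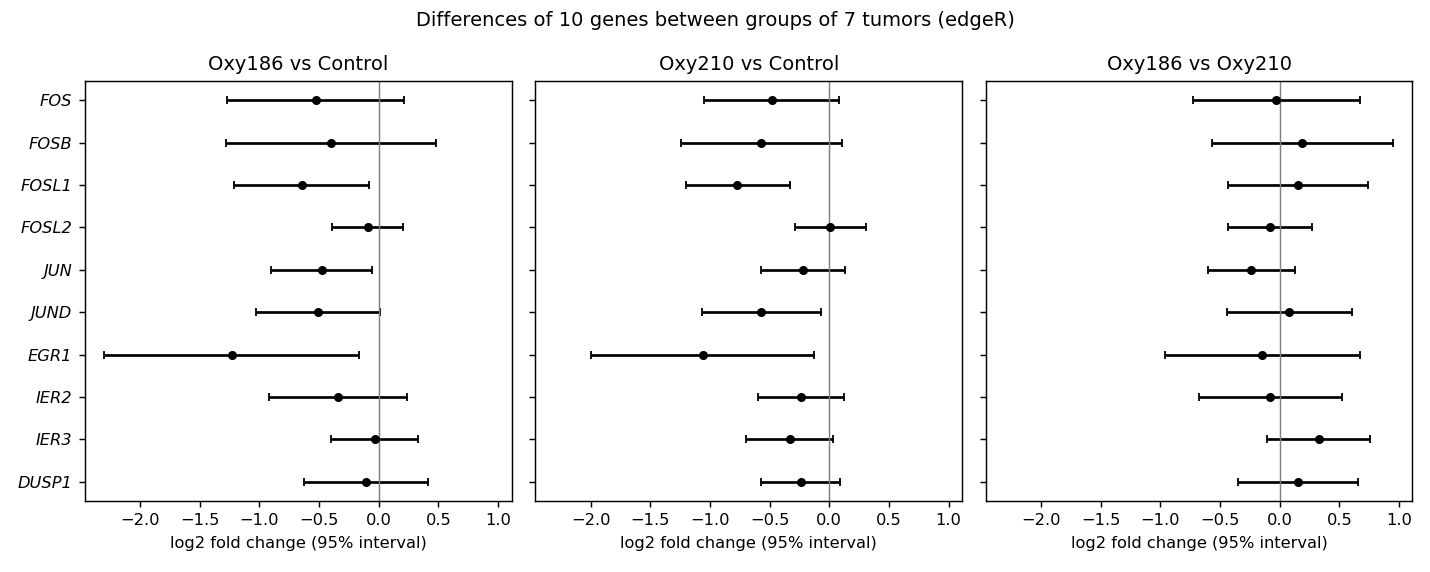
Log2 fold changes of the 10 genes in the 3 comparisons of 7 against 7 tumors, with points for edgeR estimates and bars for 95% intervals. EGR1, FOSL1 and JUN in Oxy186, and EGR1, FOSL1 and JUND in Oxy210, have intervals below 0 before adjustment, and all 10 intervals between the compounds hold 0.

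Oxy186 and Oxy210 were given at the same dose, and 1 pair of compounds was compared. The 10 genes split, 5 below and 5 above 0, with a median log2 fold change of 0.03 (Oxy186 relative to Oxy210). Of them, 0 had an unadjusted p under 0.05, beside 0.917% of all genes lower and 514 of 16361 higher. By edgeR, 0 of 16361 genes were called (0% called), and 664 had an unadjusted p under 0.05, with 0 called by DESeq2 or limma voom. The edgeR adjusted p was 1.0 for each of the 10 genes, which does not show that the compounds act alike. The largest difference was that of IER3, at 0.33 (95% interval -0.11 to 0.76), followed by JUN at -0.24 (-0.60 to 0.13).

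The intervals bound the difference unevenly. For FOSL2 it ran from -0.43 to 0.27 and for FOSL1 from -0.43 to 0.74. For FOS it ran from -0.73 to 0.67, for FOSB from -0.57 to 0.95 and for EGR1 from -0.96 to 0.67. JUND (0.08, interval -0.44 to 0.61) moved to 0.62 with GC offsets, where its unadjusted p was 0.0222 and its edgeR adjusted p 0.555.

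The study took Oxy186 r1 to r4 alone for further analysis after viewing the expression of these tumors, and deposited normalized values for them, so their differences from Control are a description of tumors chosen on expression. In that set, 1406 of 16852 genes were called (8.34% called). Of the 10 genes, 4 were lower and 0 higher at an unadjusted p under 0.05, beside 21.7% of all genes lower and 2197 of 16852 higher. JUND and IER2 had an edgeR adjusted p at or under 0.05, beside 15.0% of all genes lower at that threshold. JUND had a log2 fold change of -0.80 (SE 0.25, edgeR adjusted p = 0.0331) and IER2 of -0.91 (SE 0.26, edgeR adjusted p = 0.024), each below the Control median in 4 of 4 tumors. FOSL1 was at -0.82 (edgeR adjusted p = 0.052), and reached the threshold by DESeq2 (adjusted p = 0.0221) and among genes with at least 10 counts in every library (edgeR adjusted p = 0.0466). EGR1 was at -1.19 and JUN at -0.51. FOS was at -0.34, FOSL2 at -0.19, DUSP1 at -0.17, FOSB at -0.04 and IER3 at 0.19.

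These calls changed with GC offsets and when single tumors were left out. With GC offsets, JUND turned to 0.84 (edgeR adjusted p = 0.00962) and IER3 was 0.78 (edgeR adjusted p = 0.0215), both higher, beside 1.80% of all genes higher at that threshold, while IER2 was -0.05 (edgeR adjusted p = 0.915). The JUND call under TMM alone was lost without Control r1, r3 or r4 or Oxy186 r1, r3 or r4 (edgeR adjusted p up to 0.0979), though its log2 fold change stayed at -0.79 to -0.70, and the IER2 call without Oxy186 r3 or r4 (up to 0.0951). Without Oxy186 r1, FOS was -1.10 (edgeR adjusted p = 0.0431) and JUN -0.80 (edgeR adjusted p = 0.0266).

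**Figure D3:**
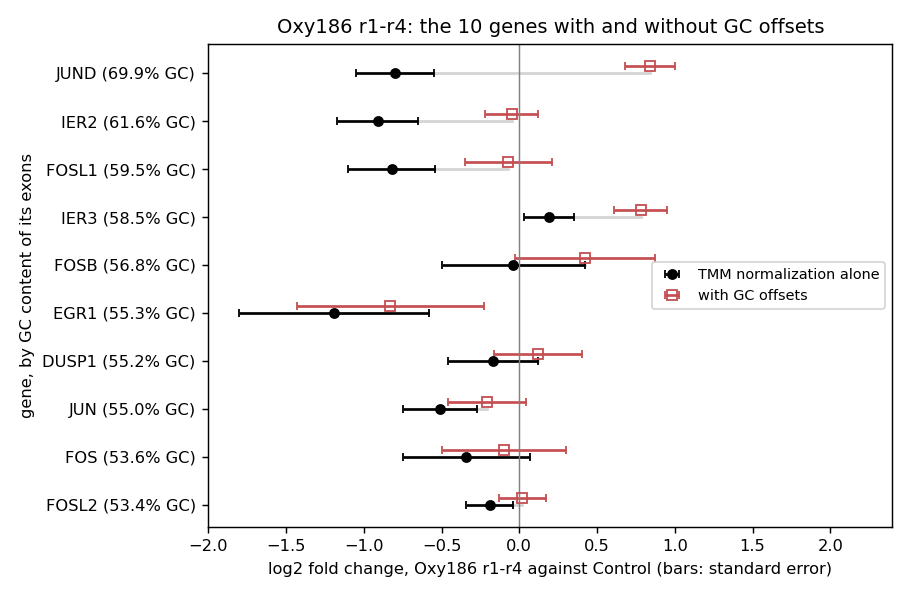
Log2 fold changes of the 10 genes between Oxy186 r1 to r4 and Control, ordered by exon GC content, with filled circles for TMM normalization alone, open squares for GC offsets, grey lines joining the 2 and bars for standard errors. JUND, at 69.9% GC, moves from -0.80 to 0.84 and IER2, at 61.6% GC, from -0.91 to -0.05, while FOS, at 53.6%, moves from -0.34 to -0.10.

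Across the 21 tumors, log2 CPM of IER2 and JUND ran with the GC slope of the library, at a Pearson r of 0.91 and 0.82. FOSL2 (0.55), FOSL1 (0.53) and DUSP1 (0.42) followed less closely. For FOS (0.13), EGR1 (0.19), FOSB (-0.12) and IER3 (-0.12) the correlation was weak. These are descriptions, since each tumor gives both values from 1 library.

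The genes also varied with each other from tumor to tumor. FOS correlated with JUN (r = 0.61, rho = 0.68), with FOSB (r = 0.59, rho = 0.39) and with EGR1 (r = 0.56, rho = 0.44), and FOSB with EGR1 (r = 0.71, rho = 0.66), over 21 tumors. Without the 2 tumors farthest from the FOS median, Control r4 and Oxy186 r1, FOS and JUN kept r = 0.65, but FOS and FOSB had r = 0.24 and FOS and EGR1 r = 0.32, so these 2 relations rested on those tumors. FOSB and EGR1 had r = 0.57 without the same pair of tumors. These values stayed within 0.47 to 0.69 when group means or the GC trend were removed.

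JUND correlated with FOSL1 (r = 0.72, rho = 0.72) and with IER2 (r = 0.70, rho = 0.78). Removing the GC trend left r = 0.52 for JUND and FOSL1, but r = -0.22 for JUND and IER2. Without the 2 tumors farthest from the median of the first gene named, JUND and IER2 had r = 0.67 and FOSL1 and JUND r = 0.74. IER2 correlated with DUSP1 at r = 0.63 (rho = 0.49), and at 0.65 with the GC trend removed, but at 0.28 without Oxy186 r3 and r4. FOS and FOSL1, both Fos proteins, did not vary together (r = 0.07), and FOSB and FOSL2 had r = -0.32. Of all 45 pairs, 43 were above 0, with a median r of 0.37. With group means or the GC trend removed, 36 and 35 were above 0 (medians 0.28 and 0.27). Pairs of other genes were not counted, so whether these values exceed those of genes in general was not tested.

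**Figure D4:**
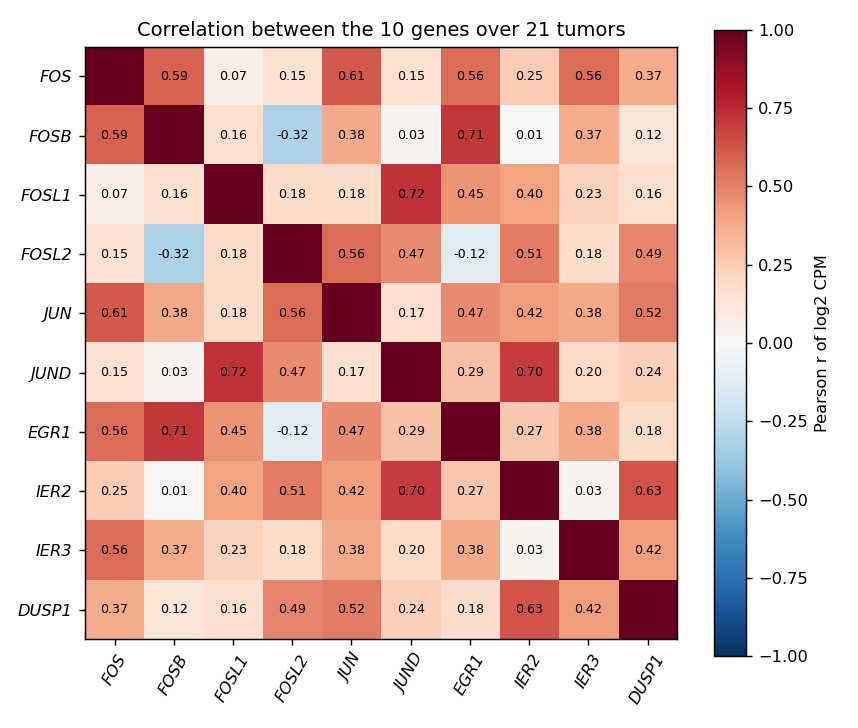
Pearson r of log2 CPM between the 10 genes over 21 tumors, with red for positive and blue for negative values. The highest values are those of JUND with FOSL1 (0.72) and IER2 (0.70) and of FOSB with EGR1 (0.71), JUND has values of 0.03 to 0.29 with FOS, FOSB, EGR1 and JUN, and FOSB with FOSL2 is the lowest (-0.32).

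By Pearson r with the mean standardized level of the 10 genes, the most alike of 13598 other genes was SEMA4B (r = 0.88), then HPCAL1 (0.82), ZFYVE1 (0.81), RELB (0.79), SLC43A2 (0.79), SEZ6L2 (0.79), PLIN3 (0.78), GPRC5A (0.78), UBOX5 (0.77) and CHST7 (0.76), over 21 tumors. SEMA4B kept the first rank when group means (r = 0.82) or the GC trend (r = 0.78) were removed. Of the other 9 genes, HPCAL1 and RELB were among the 10 most alike in the first case and 0 in the second. For FOS alone the most alike were ADORA2B (r = 0.73), the pseudogene GTF2IP20 (0.68), IRF2BP2 (0.67), PAFAH2 (0.67) and ADM (0.67), of which 2 and 1 of 5 were retained. ADORA2B is an adenosine receptor and ADM encodes adrenomedullin.

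Other genes of the same response were read from 5 lists. In the 3 comparisons of 7 against 7 tumors, 0 listed genes reached an edgeR adjusted p at or under 0.05 in either direction. Among 14 AP-1 and bZIP partners tested, 0 had an unadjusted p under 0.05 in Oxy186, beside 2.36% of all genes lower and 234 of 16291 higher. In Oxy210, 2 were lower and 1 higher, beside 8.12% of all genes lower and 5.72% higher. JUNB, which often counters JUN, had a log2 fold change of -0.32 in Oxy186 and -0.15 in Oxy210. MAFF, a small Maf protein, was the lowest of the list in Oxy186 at -0.51, and BATF2 in Oxy210 at -0.50, while CREB1 was the highest in both (0.08 and 0.22).

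Among 28 other immediate early genes tested, 3 were lower in Oxy186 and 2 in Oxy210 at an unadjusted p under 0.05, beside 2.36% and 8.12% of all genes. In both, 0 were higher, beside 234 of 16291 and 938 of 16396 genes. KLF2, a zinc finger factor, was the lowest in both, at -0.82 in Oxy186 and -0.83 in Oxy210 (unadjusted p = 0.00339, edgeR adjusted p = 0.254). GADD45B, a stress gene upstream of p38, was the highest in Oxy186 at 0.45, and NR4A3, an orphan nuclear receptor, in Oxy210 at 0.39. The median log2 fold change of the list was -0.11 and -0.10, closer to 0 than that of the 10 genes.

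The next list held genes of MAP kinase feedback and of ERK output, among them DUSP, SPRY, SPRED and ETV genes. Of its 17 genes tested, 1 was lower in each comparison with Control at an unadjusted p under 0.05, beside the same 2.36% and 8.12%. It was DUSP5, a nuclear ERK phosphatase, at -0.74 in Oxy186 (median 13.1 CPM against 21.1) and -0.75 in Oxy210 (median 11.9 CPM), with edgeR adjusted p of 0.862 and 0.298. DUSP16 was the highest in both, at 0.20 and 0.38. Of 6 genes for serum response factor and its partners, 0 were lower or higher at that threshold, with ELK1 lowest (-0.47 and -0.13) and ELK4 highest (0.13 and 0.29).

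Of 15 AP-1 target genes tested, 14 lay below 0 in Oxy186 with a median of -0.19, and 12 in Oxy210 with a median of -0.18. Of all genes, 51.1% and 48.7% lay below 0. At an unadjusted p under 0.05, 0 of the 15 were lower in Oxy186 and 1 in Oxy210, beside 2.36% and 8.12% of all genes. The collagenase MMP1 was the lowest in Oxy210 (-0.40) and the stromelysin MMP10 in Oxy186 (-0.52), and the highest were IL11 (0.23) and CXCL8 (0.07). With GC offsets the medians were -0.11 in Oxy186 and -0.07 in Oxy210. Between the compounds, the extremes of the 5 lists were BATF2 (0.39) and JDP2 (-0.25), CCN2 (0.33) and NR4A1 (-0.56), ETV5 (0.09) and SPRED3 (-0.38), ELK3 (-0.02) and ELK1 (-0.31), and TIMP1 (0.30) and IL11 (-0.33), all with an edgeR adjusted p of 1.0.

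In Oxy186 r1 to r4, the lists held 2 of 14, 8 of 28, 2 of 17, 3 of 6 and 2 of 15 genes lower at an edgeR adjusted p at or under 0.05, and 0 higher. Of all genes, the same 15.0% were lower, or 2526 of the 3323 at that threshold in either direction. The largest decrease of each list was that of MAFK at -1.82, KLF2 at -1.51, DUSP8 at -1.20, MRTFA at -1.01 and LIF at -1.19, in the order of the lists. With GC offsets the lists held 0, 2, 0, 2 and 0 genes lower and 0, 1, 0, 0 and 1 higher at that threshold, beside 2.29% of all genes lower and 1.80% higher. MRTFA, a coactivator of serum response factor, was then at -0.60 (edgeR adjusted p = 0.0178) and GADD45B at 1.31 (edgeR adjusted p = 0.00495). The other 4 genes, named after their values were seen, were IER5 at -0.89, ZFP36L2 at -0.76, ELK1 at -0.60 and TIMP1 at 0.61. Of the largest decreases above, GC offsets moved MAFK to -0.77, KLF2 to -0.60 and LIF to -0.74, and turned DUSP8 to 0.14. Their edgeR adjusted p was then 0.102 or more. The largest increase of each list without offsets was that of CREM at 0.29, GADD45B at 0.61, DUSP16 at 0.36, ELK4 at 0.20 and CXCL8 at 0.31 (0 of these 5 at an edgeR adjusted p at or under 0.05), and JUNB was at -0.51 (edgeR adjusted p = 0.0874).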

How the data were processed

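RNA was sequenced from 21 xenograft tumors. Per the submitters' processing notes and the study's methods, the authors trimmed reads with Trimmomatic 0.39, aligned them with STAR 2.7.6a to human GRCh38.p13 and mouse GRCm39 together, and counted uniquely mapped reads per human gene with featureCounts (Subread 2.0.1). The deposited counts are raw. The deposited log2 CPM values cover Control and Oxy186 r1 to r4 after filterByExpr and TMM, and recomputed values differed by at most 4.97e-14 over 16852 genes. The strand setting was not given in the sources used here.

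Counts were tested with edgeR 4.0.16 (R 4.3.3; filterByExpr, TMM, quasi-likelihood test, Benjamini-Hochberg over all genes tested), using the 2 groups compared. DESeq2 1.42.0, limma 3.58.1 voom and other alternatives are given in the closing section. GC offsets were splines of 4 degrees of freedom on GENCODE exon GC content, known for 99.8% of genes. The test was run on simulated counts as well. These held no GC trend per library, so that check does not cover the GC differences between these tumors. Groups came from the sample titles, and depth was 13787493 to 17865119 counts per tumor.

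Every one of the 10 genes is reported in each comparison. From the other lists, JUNB and the largest increase and decrease per comparison are named. The 10 most alike genes (5 for FOS) were taken among genes whose log2 CPM averaged 1 or more. The 10 genes, the lists and the tests were chosen with earlier results of these data known. Same-numbered tumors are different mice, and their deviations correlated at -0.398 to 0.329, so the numbers do not pair them.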

Additional observations from a re-analysis of the deposited data

Results flagged for a closer look

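Among 30 groups of 7 tumors tested for a tumor far from the others (10 genes in 3 groups), 2 were marked, where chance marks about 1 in 20 groups, or 1.5 here. FOSL2 in Oxy186 r3 was low, at 6.38 log2 CPM or 83.1 CPM, where the next lowest Oxy186 tumor held 121 CPM. DUSP1 in Control r3 was low, at 5.89 log2 CPM or 59.3 CPM, where the next lowest Control tumor held 105 CPM. What set these tumors apart was not tested.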

How the results depend on the processing

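The median log2 fold change of the 10 genes stayed below 0 in each of the 24 other fits of Oxy186 against Control (-0.51 to -0.05) and of Oxy210 against Control (-0.49 to -0.19), but crossed 0 between the compounds. The number of the 10 genes at an unadjusted p under 0.05 and lower ranged from 0 to 5 in Oxy186 and from 1 to 5 in Oxy210. In these 3 comparisons 0 of the 10 genes reached an adjusted p at or under 0.05 in any fit. For Oxy210 against Control, genes called were 22 with DESeq2, 7 with no filter and 1 with the replicate block, and for Oxy186 against Oxy210, 1 with no filter, with all 21 libraries in one fit, with GC offsets and with the replicate block plus GC offsets. For r1 to r4, 1406 genes called became 199 with GC offsets, 71 with the replicate block plus GC offsets and 1635 with the replicate block alone, and 992 with at least 10 counts in every library. The 2 of the 10 genes with an adjusted p at or under 0.05 became 3 with DESeq2 and with at least 10 counts in every library (FOSL1 joining), 1 with all 21 libraries in one fit, 0 with the replicate block plus GC offsets, and 0 to 3 without 1 tumor. Labels share replicate numbers, which do not pair the tumors. The cause of these changes was not tested.

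Some directions turned, most in genes close to 0 and, with GC offsets, in JUND, which was not close to 0. In Oxy186 against Control they were IER3 (0.01 by library size, 0.36 with GC offsets, 0.23 with block plus GC offsets, -0.16 to 0.06 without 1 tumor), JUND (0.42 and 0.28 with GC offsets without and with the block) and DUSP1 (0.02 with GC offsets, -0.28 to 0.03 without 1 tumor). In Oxy210 against Control it was FOSL2 (-0.02 by limma voom and with the replicate block, -0.09 to 0.07 without 1 tumor). Between the compounds, GC offsets gave 0.02 for FOS and 0.01 for IER2, and the replicate block -0.03 for FOSB. Leaving out 1 tumor there gave -0.49 to 0.11 for FOS, -0.33 to 0.31 for FOSB, -0.15 to 0.02 for FOSL2, -0.11 to 0.25 for JUND, -0.51 to 0.01 for EGR1, -0.22 to 0.06 for IER2 and -0.05 to 0.28 for DUSP1. In r1 to r4, GC offsets without and with the block gave 0.42 and 0.10 for FOSB (0.05 by library size), 0.02 and 0.15 for FOSL2, 0.84 and 0.74 for JUND and 0.12 and 0.21 for DUSP1, and leaving out 1 tumor gave -0.73 to 0.20 for FOSB and -0.61 to 0.08 for DUSP1. Without length, 5 genes changed rank in Control, and 0 with the longest transcript. Of the genes most alike, 3 of 10 and 2 of 5 were retained with group means removed, and 1 and 1 with the GC trend removed. EGR1, FOSB and FOSL1 held as few as 9, 19 and 20 counts in a tumor, which limits their precision.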
